A study of Mus musculus with 7 samples.

Results

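The 10 genes described here are 6 transcription factors that drive epithelial-mesenchymal transition (EMT), Snai1, Snai2, Zeb1, Zeb2, Twist1 and Twist2, the classical cadherins Cdh1, Cdh2 and Cdh3, and the intermediate filament gene Vim. They were chosen by name, with earlier results of these data known, so that their shares and median below are a description. All 10 were found among the 55423 features of the count table, and all 10 were among the 24433 genes that passed the filter on low counts, which required 5 reads or more in any 1 tumour. RNA was sequenced from bulk cutaneous squamous cell carcinomas (cSCC) of 2 genotypes of mice, to ask how overexpression of SOX2 changes tumours that arise from the involucrin-expressing (IVL+) cells of the skin. In Ivl:BRAFV600E mice, Ivl-CreERT2, a tamoxifen-inducible Cre driven by the involucrin promoter, switched on the BRAFV600E oncogene after topical tamoxifen. Ivl:BRAFV600E-SOX2LSL mice carried the same alleles and, in addition, the Rosa26 LSL-SOX2-IRES-eGFP allele, so that recombined cells also expressed SOX2 and eGFP. Mice of both genotypes were on a C57BL/6J background, were 7 to 10 weeks old at induction per the labels (the methods of the study give a later range), and kept their tumours until the clinical endpoint.

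Tumours of 3 mice per genotype were compared, 2 females and 1 male for Ivl:BRAFV600E and 1 female and 2 males for Ivl:BRAFV600E-SOX2LSL. Every Ivl:BRAFV600E-SOX2LSL tumour was collected earlier after induction than every Ivl:BRAFV600E tumour, so time since induction and genotype cannot be told apart. Between 23565432 and 31152826 reads were counted on genes per tumour, and 3 counts, the level taken as the limit of detection, corresponded to 0.0839 to 0.143 CPM. CPM stands for counts scaled to a common library size, here after adjustment by the trimmed mean of M values (TMM). Sox2 was measured at 0.716, 0.508 and 0.238 CPM in the Ivl:BRAFV600E tumours and at 182, 155 and 158 CPM in the Ivl:BRAFV600E-SOX2LSL tumours, and EGFP had 0 counts in the former and 3132 to 4957 in the latter, as the labels say. Tumours are numbered 1 to 3 within each genotype in the order of the table. Ivl:BRAFV600E-SOX2LSL tumour 1 stood apart from the other 2 of its group by the lowest summed level of keratinocyte markers and the highest of fibroblast and of macrophage and myeloid markers, and the members' results that rest on it are given with and without it.

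EMT is the process by which epithelial cells lose their junctions and gain features of migratory mesenchymal cells. SNAI, ZEB and TWIST factors bind E-box sequences in DNA and repress epithelial genes, among them Cdh1, whose product E-cadherin holds keratinocytes together in adherens junctions. N-cadherin (Cdh2) marks the mesenchymal state, P-cadherin (Cdh3) marks basal keratinocytes and the hair follicle, and vimentin (Vim) is the intermediate filament of fibroblasts, endothelial cells and leukocytes as well as of carcinoma cells in EMT. Squamous carcinomas often show a partial EMT, in which mesenchymal genes are expressed while E-cadherin is kept. In a bulk tumour, a change in the number of cells of a type and a change in RNA per cell cannot be told apart.

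Sequences are shown for the paralogous pairs, because reads from near-identical copies could be assigned to either gene, and for the promoters of 2 genes whose levels in the groups did not overlap. The longest run common to Snai1 and Snai2 is 23 bases, of which the 22 shown are coding and begin at the start codon, where both encode the SNAG domain that recruits co-repressors.
Snai1 and Snai2: atgccgcgctccttcctggtca
Twist1 and Twist2 share 23 bases that start at base 403 and base 265 of their coding sequences, within the basic helix-loop-helix domain.
Twist1 and Twist2: ctgcgcaagatcatccccacgct
Cdh1 and Cdh3, which lie next to each other 46.1 kb apart, share no run longer than 16 bases.
Cdh1 and Cdh3: ttttctacagcatcac
The longest run was 23 bases for Zeb1 and Zeb2 and 26 bases for Cdh1 and Cdh2.

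RefSeq promoter windows on GRCm38.p6, from 250 bases before to 50 bases after the start of transcription, were at hand for 5 members, Snai1, Twist1, Twist2, Vim and Zeb2, in 8 windows. They were searched on both strands for CAGGTG, the E-box form bound by SNAI and ZEB factors, and for ACAATG and ACAAAG, the forms of the core motif of SOX factors. The Snai1 window, chr2:167537945-167538244 on the plus strand, held the E-box once, read on the other strand as CACCTG, 126 bases upstream of the start, and ACAAAG once, 69 bases upstream. Capitals mark both.
Snai1 promoter: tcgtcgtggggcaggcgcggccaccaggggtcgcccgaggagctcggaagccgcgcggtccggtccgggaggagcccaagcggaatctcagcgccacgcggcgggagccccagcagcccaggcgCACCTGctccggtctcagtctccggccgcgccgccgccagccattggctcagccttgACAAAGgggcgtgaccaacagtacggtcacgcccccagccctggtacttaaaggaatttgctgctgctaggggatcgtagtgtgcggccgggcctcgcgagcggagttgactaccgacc
The Vim window, chr2:13574061-13574360 on the plus strand, held none of these letters.
Vim promoter: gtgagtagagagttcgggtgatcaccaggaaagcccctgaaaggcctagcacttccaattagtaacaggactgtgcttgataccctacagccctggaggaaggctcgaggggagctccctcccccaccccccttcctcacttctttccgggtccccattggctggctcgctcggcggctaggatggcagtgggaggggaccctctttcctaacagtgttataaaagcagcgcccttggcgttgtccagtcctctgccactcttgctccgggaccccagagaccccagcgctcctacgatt
Of the remaining windows, 1 of the 4 of Zeb2 held ACAAAG, 62 bases upstream of its start, and those of Twist1 and Twist2 held none of the 3 motifs. Among 32851 promoter windows of the same length, 20.2% held CAGGTG, 12.6% ACAATG and 18.7% ACAAAG, so single matches of this kind are common. A match is a description of the letters and not a binding site.

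The mean level of all 10 members was higher in the Ivl:BRAFV600E-SOX2LSL tumours, but only Cdh3 passed the test across all genes. It encodes P-cadherin and was 1.86-fold higher. With edgeR's quasi-likelihood test, 1 of the 10 was called higher at an adjusted p below 0.05 and 0 lower, against 3.9% of the 24433 tested genes called in either direction, 2.39% higher and 1.51% lower. DESeq2, limma and edgeR without the filter on low counts each called 3 members higher and 0 lower, against 18.2%, 8.77% and 5.24% of genes called by them in either direction. For DESeq2 the share, here and below, is of the 20046 genes to which it gave an adjusted p, which leaves out Cdh2. Without the filter it is of 33568 genes. At an unadjusted p below 0.05 there were 8 of 10 members, against 25.7% of all genes, and the groups did not overlap for 7 of 10, all on the higher side, against 34.2% in either direction and 18.2% on the higher side. The median log2 fold change of the members was 0.86, against 0.04 over all tested genes, of which 52.8% had a value above 0. A log2 fold change is given throughout as Ivl:BRAFV600E-SOX2LSL over Ivl:BRAFV600E with its standard error (SE) and the adjusted p of edgeR over all genes.

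**Figure D1:**
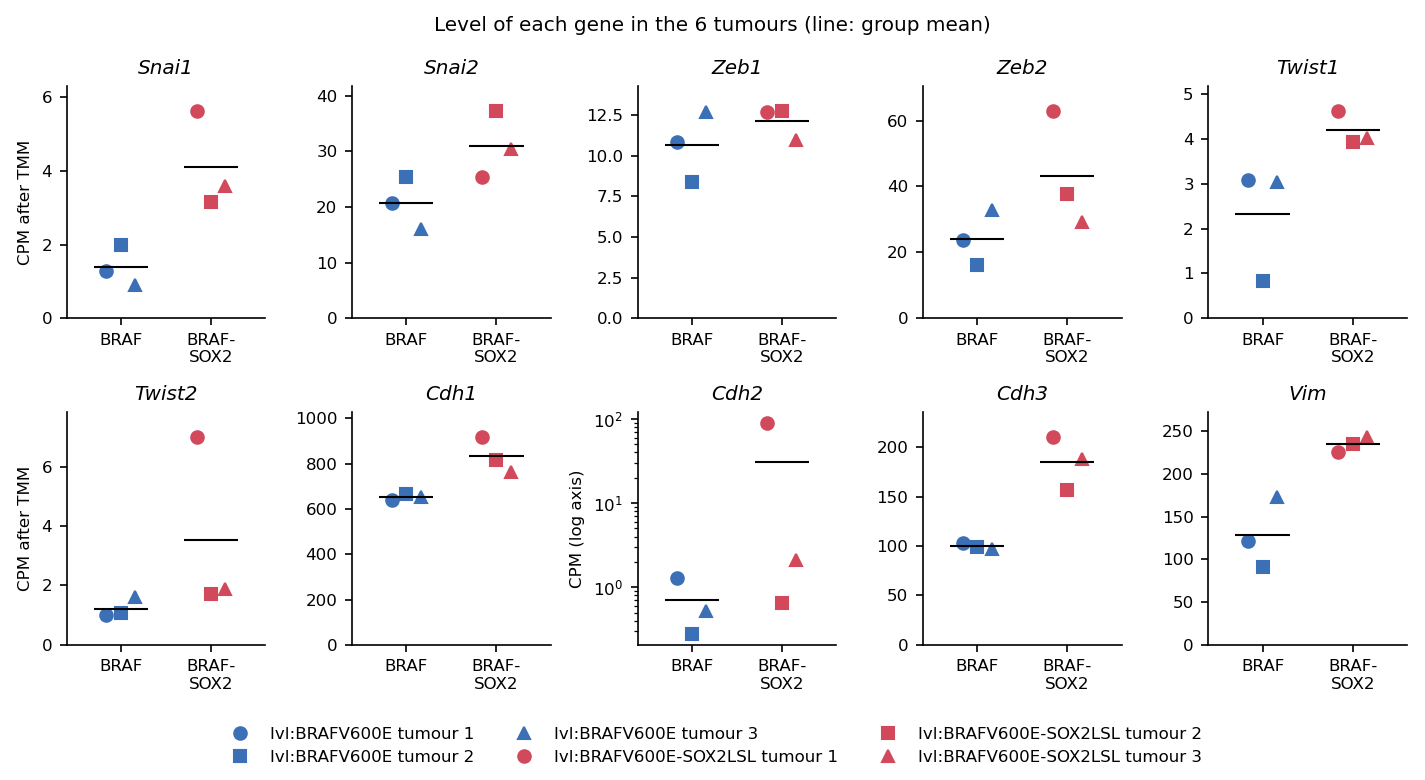
CPM after TMM of each of the 10 genes in the 6 tumours, with the mean of each group as a line. The vertical axis starts at 0 except for Cdh2, which is on a log axis. Cdh3 is higher in all 3 Ivl:BRAFV600E-SOX2LSL tumours (157 to 210 CPM) than in the Ivl:BRAFV600E tumours (96.8 to 103 CPM), while Cdh2 and Twist2 are high in Ivl:BRAFV600E-SOX2LSL tumour 1 alone.

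Among the transcription factors, the SNAI genes showed the smallest p. Snai1 encodes the zinc-finger repressor SNAIL, a short-lived protein that is induced early in EMT, and lies on chromosome 2 from 167538195 to 167542814 (ENSMUSG00000042821, GRCm38, plus strand). It was measured at 1.30, 1.99 and 0.903 CPM in the Ivl:BRAFV600E tumours and at 5.62, 3.14 and 3.58 CPM in the Ivl:BRAFV600E-SOX2LSL tumours. The groups did not overlap, and the lowest Ivl:BRAFV600E-SOX2LSL tumour lay above the highest Ivl:BRAFV600E tumour. The log2 fold change was 1.56 (SE 0.39, adjusted p = 0.0685), a fold of 2.95, and did not pass the threshold with edgeR. DESeq2 (adjusted p = 0.00371), limma (adjusted p = 0.0376) and edgeR without the filter on low counts (adjusted p = 0.0475) did call Snai1. Without Ivl:BRAFV600E-SOX2LSL tumour 1 the log2 fold change was 1.26.

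Snai2 encodes SLUG, which is also part of normal basal keratinocytes and of wound repair, and lies on chromosome 16 from 14705852 to 14709385 (ENSMUSG00000022676, plus strand). Snai2 was measured at 20.8, 25.36 and 15.96 CPM in the Ivl:BRAFV600E tumours and 25.40, 37.2 and 30.4 CPM in the Ivl:BRAFV600E-SOX2LSL tumours. Both groups all but touched, since Ivl:BRAFV600E tumour 2 and Ivl:BRAFV600E-SOX2LSL tumour 1 were nearly level, although by count they did not overlap. With a log2 fold change of 0.58 (SE 0.22, adjusted p = 0.154), Snai2 was not called.

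Zeb1 encodes a zinc-finger and homeodomain repressor of Cdh1 and of epithelial microRNA genes, and lies on chromosome 18 from 5591860 to 5775467 (ENSMUSG00000024238, plus strand). Zeb1 was measured at 10.8, 8.41 and 12.7 CPM in the Ivl:BRAFV600E tumours and 12.7, 12.8 and 10.9 CPM in the Ivl:BRAFV600E-SOX2LSL tumours, and the groups overlapped throughout. The log2 fold change of Zeb1 was 0.19 (SE 0.20, adjusted p = 0.582), the smallest of the 10.

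Zeb2 encodes the second ZEB repressor, which macrophages and other myeloid cells also express, and lies on chromosome 2 from 44983632 to 45117395 (ENSMUSG00000026872, minus strand). Zeb2 was measured at 23.6, 16.2 and 32.8 CPM in the Ivl:BRAFV600E tumours and 62.9, 37.6 and 29.1 CPM in the Ivl:BRAFV600E-SOX2LSL tumours. Ivl:BRAFV600E-SOX2LSL tumour 1 was the highest, and tumour 3 lay below the highest Ivl:BRAFV600E tumour. Its log2 fold change was 0.84 (SE 0.35, adjusted p = 0.187) with all tumours and 0.46 without Ivl:BRAFV600E-SOX2LSL tumour 1. The order of the tumours by Zeb2 within the Ivl:BRAFV600E-SOX2LSL group was that of their macrophage and myeloid marker sums, which were 627, 311 and 200 CPM against 82.1, 112 and 169 CPM in the Ivl:BRAFV600E tumours, where the orders differed. The part of these cells in the Zeb2 level was not tested. Exons of Zeb2 overlap the antisense gene Zeb2os, Gm27761 and Mir5129, and as the strand used in counting is not stated, reads of these genes cannot be told apart from Zeb2.

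TWIST genes were low. Twist1 encodes a basic helix-loop-helix factor of mesoderm and neural crest, and lies on chromosome 12 from 33957671 to 33959829 (ENSMUSG00000035799, plus strand). Twist1 was measured at 3.07, 0.832 and 3.04 CPM in the Ivl:BRAFV600E tumours and 4.62, 3.92 and 4.01 CPM in the Ivl:BRAFV600E-SOX2LSL tumours. The groups did not overlap, but Ivl:BRAFV600E tumour 2 lay far below the other 2 of its group. Twist1 had a log2 fold change of 0.85 (SE 0.47, adjusted p = 0.294), which ranged from 0.45 to 1.11 over the fits that left out 1 tumour.

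Twist2, the paralogue expressed in dermal fibroblasts, lies on chromosome 1 from 91801461 to 91848028 (ENSMUSG00000007805, plus strand). Levels of Twist2 were 0.989, 1.06 and 1.62 CPM in the Ivl:BRAFV600E tumours and 6.99, 1.72 and 1.88 CPM in the Ivl:BRAFV600E-SOX2LSL tumours. Only Ivl:BRAFV600E-SOX2LSL tumour 1 was clearly separate, as the other 2 lay just above the highest Ivl:BRAFV600E tumour. Twist2 had a log2 fold change of 1.54 (SE 0.60, adjusted p = 0.168) and 0.56 without that tumour. Gm29100 overlaps Twist2 on the other strand, and Gm10125 overlaps Zeb1, with the same limit on assignment.

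Of the cadherins, Cdh3 rose and Cdh1 was not lower. Cdh3 lies on chromosome 8 from 106510891 to 106557297 (ENSMUSG00000061048, plus strand). Cdh3 was measured at 103, 99.5 and 96.8 CPM in the Ivl:BRAFV600E tumours and 210, 157 and 188 CPM in the Ivl:BRAFV600E-SOX2LSL tumours. The spread was narrow in the first group and the lowest value of the second lay well above it. For Cdh3 the log2 fold change was 0.89 (SE 0.14, adjusted p = 0.0272), a fold of 1.86. The sign held in every alternative, with log2 fold changes of 0.79 to 0.997, but with 2 tumours in 1 group the call was kept only without Ivl:BRAFV600E-SOX2LSL tumour 1 (adjusted p = 0.0136) or tumour 2 (adjusted p = 0.0456). It was lost without Ivl:BRAFV600E tumour 1 (adjusted p = 0.129), tumour 2 (0.0973) or tumour 3 (0.0775), without Ivl:BRAFV600E-SOX2LSL tumour 3 (0.0614), and with sex as a covariate (0.0716).

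Cdh1 lies beside Cdh3 on chromosome 8 from 106603351 to 106670246 (ENSMUSG00000000303, plus strand). It was measured at 638, 667 and 651 CPM in the Ivl:BRAFV600E tumours and 916, 815 and 765 CPM in the Ivl:BRAFV600E-SOX2LSL tumours. No Ivl:BRAFV600E-SOX2LSL tumour was below any Ivl:BRAFV600E tumour. Cdh1 had a log2 fold change of 0.35 (SE 0.14, adjusted p = 0.175), a fold of 1.28, and it stayed between 0.25 and 0.41 over all alternatives. A p that misses the threshold does not show that Cdh1 was equal in both genotypes.

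Cdh2 lies on chromosome 18 from 16588877 to 16809246 (ENSMUSG00000024304, minus strand). Cdh2 was measured at 1.30, 0.277 and 0.523 CPM, from 38, 6 and 11 counts, in the Ivl:BRAFV600E tumours and at 89.5, 0.648 and 2.13 CPM, from 3198, 20 and 59 counts, in the Ivl:BRAFV600E-SOX2LSL tumours. A single tumour, Ivl:BRAFV600E-SOX2LSL tumour 1, held almost all of the signal, and the other 2 overlapped with or lay close to the Ivl:BRAFV600E tumours. The log2 fold change of Cdh2 was 5.41 (SE 1.85, adjusted p = 0.130) with this tumour and 0.95 (adjusted p = 0.480) without it. With all 6 tumours, limma gave 1.29 (adjusted p = 0.576), and edgeR with sex as a covariate gave 3.75 (adjusted p = 0.451). In the 3 Ivl:BRAFV600E-SOX2LSL tumours, fibroblast marker sums (8873, 4305 and 5239 CPM) and adipocyte marker sums (59.98, 10.9 and 26.5 CPM) had the same order as Cdh2, and macrophage and myeloid sums were also highest in tumour 1. Skeletal muscle sums (3059, 3411 and 792 CPM) and Schwann cell sums (177, 323 and 316 CPM) had another order. A single gene made up most of 2 of these sums, so their order is largely its own. It was Erbb3 for Schwann cells (138, 264 and 265 CPM) and Fabp4 for adipocytes (36.4, 10.7 and 25.7 CPM). In the Ivl:BRAFV600E tumours, neither fibroblast sums (2321, 848 and 5384 CPM) nor adipocyte sums (43.7, 27.0 and 16.9 CPM) had the order of Cdh2. The part of any of these cells in the Cdh2 level was not tested.

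Vimentin varied among the Ivl:BRAFV600E tumours and was even among the Ivl:BRAFV600E-SOX2LSL tumours. Vim lies on chromosome 2 from 13573927 to 13582826 (ENSMUSG00000026728, plus strand) and was measured at 122, 91.7 and 174 CPM in the Ivl:BRAFV600E tumours and 226, 236 and 243 CPM in the Ivl:BRAFV600E-SOX2LSL tumours. The groups did not overlap. Vim had a log2 fold change of 0.86 (SE 0.23, adjusted p = 0.0776), a fold of 1.82, which missed the threshold with edgeR, while DESeq2 (adjusted p = 0.0130), limma (adjusted p = 0.0344) and edgeR without the filter (adjusted p = 0.0460) called it. Vim was as much higher without Ivl:BRAFV600E-SOX2LSL tumour 1, at 0.89.

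**Figure D2:**
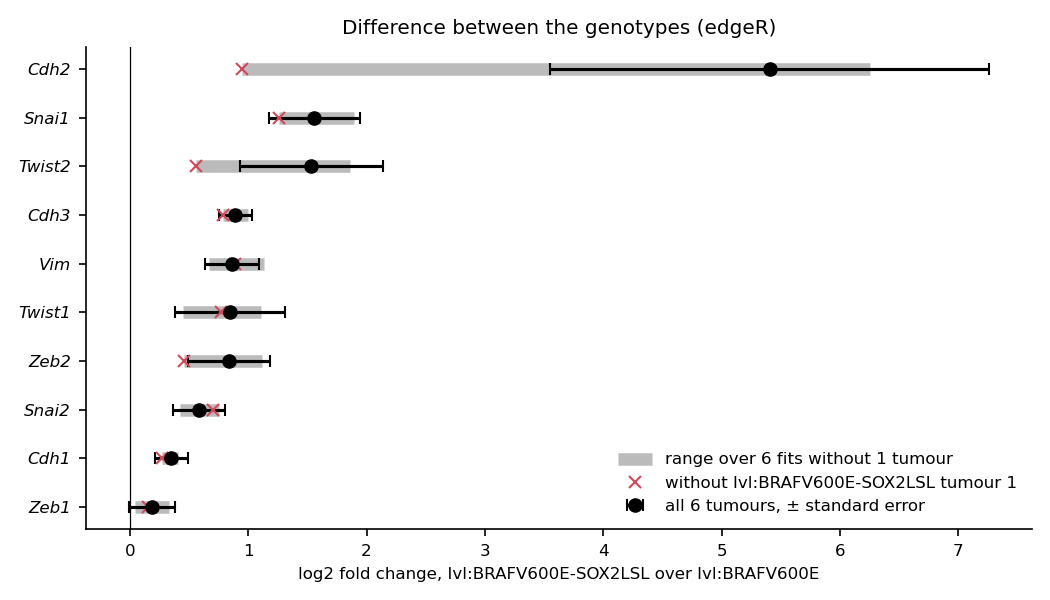
Log2 fold change of each gene between the genotypes from edgeR (points, with bars of 1 SE), the range over the 6 fits that each left out 1 tumour (grey) and the fit without Ivl:BRAFV600E-SOX2LSL tumour 1 (crosses). All 10 log2 fold changes lie above 0, and Cdh2 moves from 5.41 to 0.95 and Twist2 from 1.54 to 0.56 without that tumour.

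To compare genes with each other, CPM was divided by the length of all annotated exons in kb. In the Ivl:BRAFV600E tumours the mean level per kb was highest for Cdh1 (143), followed by Vim (27.2), Cdh3 (22.7), Snai2 (10.2), Twist1 (1.42), Zeb2 (1.21), Zeb1 (1.04), Snai1 (0.861), Twist2 (0.385) and Cdh2 (0.0866). Snai2 was thus the highest of the 6 factors. Neighbours whose ranges over the 3 tumours overlapped were Vim and Cdh3, Twist1 and Zeb2, Zeb2 and Zeb1, and Zeb1 and Snai1. In the Ivl:BRAFV600E-SOX2LSL tumours the order of the first 4 was the same, at 182 for Cdh1, 49.5 for Vim, 42.2 for Cdh3 and 15.3 for Snai2, and Cdh2 came next at a mean of 3.81, set by tumour 1. Twist1 (2.57), Snai1 (2.54) and Zeb2 (2.17) followed with overlapping ranges, and Zeb1 (1.18) and Twist2 (1.11) were last and overlapped. Zeb1 and Zeb2 have many annotated isoforms, and their summed exon length lowers their level on this scale.

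The balance of the cadherins was also taken as a ratio within each tumour, which does not depend on the scaling of libraries. Per kb, Cdh3 stood at 16.8%, 15.6% and 15.5% of Cdh1 in the Ivl:BRAFV600E tumours and at 24.0%, 20.1% and 25.7% in the Ivl:BRAFV600E-SOX2LSL tumours. These groups did not overlap, and the mean log2 ratio differed by 0.53 (exact two-sided permutation test, p = 0.1, the smallest that 3 against 3 tumours allow, and 0.2 after adjustment over 2 ratios). Cdh2 stood at 0.115%, 0.0236% and 0.0455% of Cdh1 in the Ivl:BRAFV600E tumours and 5.54%, 0.0451% and 0.158% in the Ivl:BRAFV600E-SOX2LSL tumours. These overlapped (difference of 2.77 on the log2 scale, exact two-sided permutation test, p = 0.3), and the difference was 0.76 without Ivl:BRAFV600E-SOX2LSL tumour 1. Even in Ivl:BRAFV600E-SOX2LSL tumour 1, where N-cadherin was highest, E-cadherin RNA exceeded it by far.

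Of 20 other genes of the Cdh family, 13 passed the filter, and 3 were called by DESeq2 (18.2% of all genes), 2 by limma (8.77%) and 1 by edgeR (3.9%), Cdh6, which encodes K-cadherin of the embryonic kidney and neural crest. Cdh6 was measured at 1.16, 0.0924 and 0.523 CPM in the Ivl:BRAFV600E tumours and 158, 44.8 and 24.96 CPM in the Ivl:BRAFV600E-SOX2LSL tumours. The groups were far apart, with a log2 fold change of 6.93 (SE 1.01, adjusted p = 0.0249), and all 3 Ivl:BRAFV600E-SOX2LSL tumours were high. Without Ivl:BRAFV600E-SOX2LSL tumour 1 it was 5.80 (adjusted p = 0.00756). The Cdh6 call was lost without Ivl:BRAFV600E tumour 1 (adjusted p = 0.111), tumour 2 (0.0861) or tumour 3 (0.0735) and with sex as a covariate (0.0599). Cdh13, the GPI-anchored T-cadherin, was measured at 29.6, 31.6 and 29.6 CPM against 92.9, 52.6 and 46.5 CPM, with a log2 fold change of 1.08 (SE 0.26) that missed the threshold with edgeR (adjusted p = 0.0648) but not with DESeq2 (0.00543), limma (0.0329) or edgeR without the filter (0.0321). Cdh15, the muscle cadherin, reached 2.36 CPM at most and Cdh10 0.867 CPM. Neither was called by edgeR or limma, and DESeq2 called Cdh15 (adjusted p = 0.0183). The list's median log2 fold change was 0.98.

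**Figure D3:**
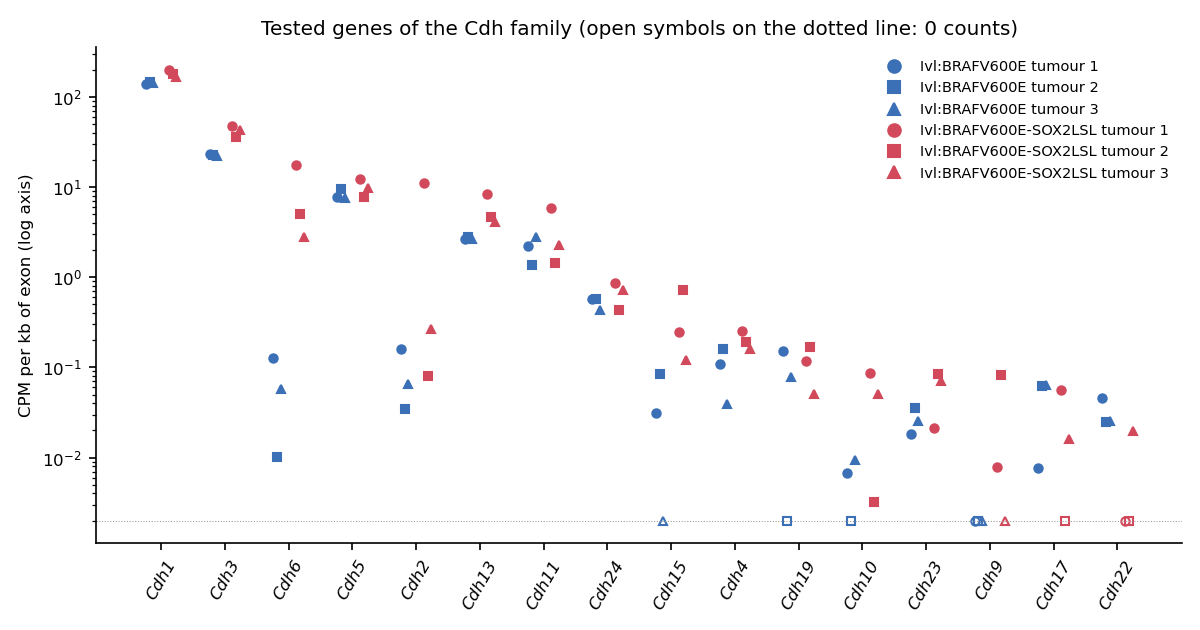
Level per kb of exon, on a log axis, of the tested genes of the Cdh family in each tumour, ordered by the highest tumour. Open symbols on the dotted line mark 0 counts. Cdh1 and Cdh3 lead in both genotypes, Cdh6 is high in all 3 Ivl:BRAFV600E-SOX2LSL tumours, and Cdh2 is high in tumour 1 alone.

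Other genes of the EMT programme were read from 6 lists, and of 128 distinct genes tested 12 were called by edgeR, all higher in the Ivl:BRAFV600E-SOX2LSL tumours, against 3.9% of all genes. DESeq2 called 40 higher and 7 lower, against 18.2% of all genes in either direction, and limma 23 higher and 5 lower, against 8.77%. Among 25 tested other EMT factors and partners, 3 rose and 0 fell by edgeR, with a median log2 fold change of 0.42, while DESeq2 called 7 higher and 1 lower and limma 4 higher and 1 lower. They were Tcf4 (50.8, 49.6 and 56.4 CPM against 117, 105 and 92.1 CPM, log2 fold change 1.004, adjusted p = 0.0199) and Tcf3 (0.83, adjusted p = 0.0291), which encode E-proteins that pair with TWIST factors, and Ctbp2 (0.73, adjusted p = 0.0445), a co-repressor of ZEB and SNAI factors. Its paralogue Ctbp1 was at 0.42 and was called by DESeq2 (adjusted p = 0.00478) and limma (0.0387) but not by edgeR (0.0709).

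Of 18 tested factors that hold the epithelial state, 0 were called by edgeR in either direction, 9 had an unadjusted p below 0.05, and the median was 0.03. DESeq2 called 2 higher and 3 lower, and limma 1 lower. Of all genes, 25.7% had an unadjusted p below 0.05 by edgeR. The shares called by edgeR, DESeq2 and limma in either direction were 3.9%, 18.2% and 8.77%. The smallest p were those of Ovol2 (log2 fold change 1.01, adjusted p = 0.0864) and Gata3 (0.99, 0.0987), which lay on the higher side, and Tfap2c (-1.04, 0.105) and Grhl1 (-0.84, 0.111) on the lower side. Ovol2, a repressor of Zeb1 and of EMT, was measured at 1.02, 1.15 and 0.950 CPM in the Ivl:BRAFV600E tumours and 2.35, 1.81 and 2.13 CPM in the Ivl:BRAFV600E-SOX2LSL tumours. Trp63, which defines stratified epithelium, was even, at 261, 297 and 287 CPM against 281, 321 and 302 CPM (log2 fold change 0.10, adjusted p = 0.662).

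Among 22 adherens junction and polarity partners of E-cadherin, 1 rose and 0 fell by edgeR, with a median of -0.10. DESeq2 called 5 higher and 2 lower and limma 3 higher and 2 lower. Over all genes, edgeR, DESeq2 and limma called 3.9%, 18.2% and 8.77% in either direction. The called gene was Epcam, a surface protein of simple epithelia, at 30.0, 8.04 and 18.5 CPM against 428, 141 and 155 CPM (log2 fold change 3.68, SE 0.63, adjusted p = 0.0309). Without Ivl:BRAFV600E-SOX2LSL tumour 1 the log2 fold change of Epcam was 2.96 (adjusted p = 0.0160), and the call was lost in each of the other 5 fits without 1 tumour, with adjusted p up to 0.119. Nectin2 (0.87, adjusted p = 0.0558), Cxadr (0.93, 0.0652) and Prkci (-0.70, 0.0800) were next by p and were not called by edgeR, while DESeq2 and limma called all 3.

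Mesenchymal targets had a log2 fold change above 0 in 30 of 31, against 52.8% of all genes, and a median of 1.06. By edgeR 2 were called, against 3.9% of all genes. DESeq2 called 12 higher and 1 lower, and limma 7 higher and 1 lower, against 18.2% and 8.77% in either direction. The fibroblast markers, which share collagens and Pdgfra with this list, had a median of 1.13. Summed over the list, the tumours overlapped, at 4294, 2684 and 8038 CPM against 15522, 7486 and 8421 CPM, with Ivl:BRAFV600E-SOX2LSL tumour 1 the highest. The calls of edgeR were the integrins Itga5 (22.4, 33.4 and 24.9 CPM against 103, 62.2 and 58.4 CPM, log2 fold change 1.47, adjusted p = 0.0342), a receptor of fibronectin, and Itgb3 (0.91, adjusted p = 0.0460). The TGF-beta receptors Tgfbr2 (1.13, adjusted p = 0.0522) and Tgfbr1 (0.95, adjusted p = 0.0611) missed the threshold with edgeR and were called by DESeq2 and limma. Wnt5a, at 125, 215 and 168 CPM against 103, 54.2 and 66.2 CPM, was the exception (-1.18, adjusted p = 0.0662 by edgeR), and DESeq2 and limma called it lower.

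Partial EMT genes of squamous carcinoma held the most calls, with 6 of 22 higher and 0 lower by edgeR and a median of 1.11. DESeq2 called 14 and limma 10, all higher. The shares of all genes called by edgeR, DESeq2 and limma in either direction were 3.9%, 18.2% and 8.77%. Tgfbi, a matrix protein induced by TGF-beta, was measured at 103, 121 and 133 CPM against 323, 428 and 309 CPM (log2 fold change 1.57, SE 0.18, adjusted p = 0.0131). Plau, which encodes urokinase, was at 1.07 (adjusted p = 0.0206) and Pdpn, podoplanin of the invasive front, at 2.00 (adjusted p = 0.0391). Itga5, in this list as well, and 2 genes named after their values were seen, Inhba (2.64, adjusted p = 0.0489, and 1.89 without Ivl:BRAFV600E-SOX2LSL tumour 1) and Lamb3 (1.06, adjusted p = 0.0491), complete the 6. Without single tumours the calls over the 6 lists ranged from 0, without Ivl:BRAFV600E tumour 1 or 2, to 27, without Ivl:BRAFV600E-SOX2LSL tumour 1, and were 2 without Ivl:BRAFV600E tumour 3, 2 without Ivl:BRAFV600E-SOX2LSL tumour 2 and 7 without tumour 3.

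**Figure D4:**
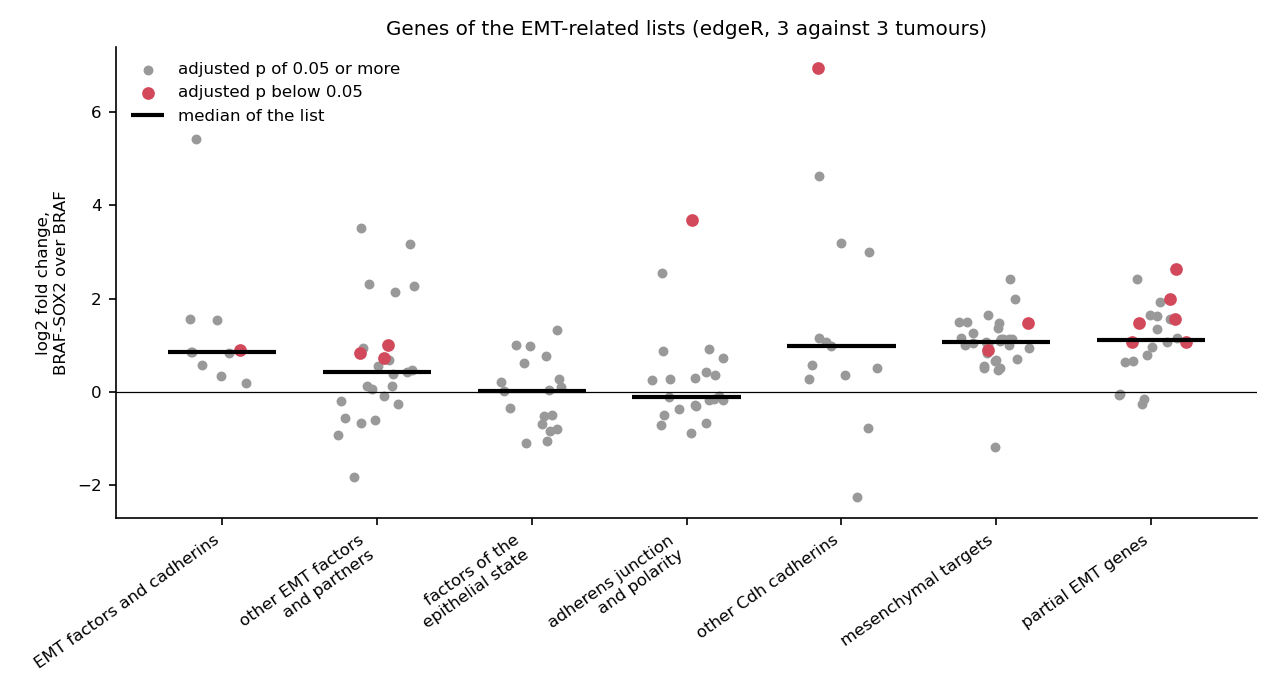
Log2 fold change of the tested genes of the 10 members and of the 6 lists (points, red where the adjusted p of edgeR is below 0.05) with the median of each list (bar). Medians are 0.86 for the members, 1.06 for mesenchymal targets and 1.11 for partial EMT genes, and 0.03 for factors of the epithelial state.

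Marker lists of the cells in a skin tumour were summed per tumour, and their calls are to be read against the 25.7% of all genes with an unadjusted p below 0.05 and the 3.9%, 18.2% and 8.77% called by edgeR, DESeq2 and limma. Summed fibroblast markers were 2321, 848 and 5384 CPM in the Ivl:BRAFV600E tumours and 8873, 4305 and 5239 CPM in the Ivl:BRAFV600E-SOX2LSL tumours, with 0 of 12 called by edgeR, 4 at an unadjusted p below 0.05, 4 called by DESeq2 and 2 by limma. The median log2 fold change of the fibroblast markers was 1.13, with 11 of 12 above 0. In the Ivl:BRAFV600E group, Vim, Zeb1 and Zeb2 were lowest in tumour 2 and highest in tumour 3, as was this sum, while Snai1 and Snai2 were highest in tumour 2 and lowest in tumour 3. In the Ivl:BRAFV600E-SOX2LSL group, Vim was lowest in tumour 1, where the fibroblast sum was highest. Summed keratinocyte markers were 100280, 149590 and 130960 CPM against 21055, 62724 and 56614 CPM. Of these 13 markers, 0 were called by edgeR and 9 had an unadjusted p below 0.05. The calls went both ways, with 7 by DESeq2 (2 higher and 5 lower) and 2 by limma (1 higher and 1 lower). Krt10, a keratin of differentiated layers, was at 28863, 36342 and 31849 CPM against 425, 3994 and 7214 CPM. Krt5, a basal keratin, was at 2562, 2668 and 2626 CPM against 2371, 3900 and 3314 CPM (log2 fold change 0.29). Krt14, also basal, was at 13436, 31248 and 22705 CPM against 6528, 21151 and 15302 CPM (-0.65), with overlap between the groups. Krt15 was higher, at 1.63. For macrophage and myeloid markers the median log2 fold change was 1.86, with 9 of 10 at an unadjusted p below 0.05, 8 called by DESeq2 and 3 by limma. edgeR called 2, Ptprc (log2 fold change 1.30, adjusted p = 0.0483) and Csf1r (1.98, adjusted p = 0.0483), and 10 of 12 for skeletal muscle. Muscle sums were 4.57, 5.27 and 17.7 CPM in the Ivl:BRAFV600E tumours against 3059, 3411 and 792 CPM, with a median log2 fold change of 7.66. Of the 12 muscle markers, DESeq2 called 11 and limma 4, all higher. The myoblast factors Myod1 and Myog had 0 counts in the Ivl:BRAFV600E tumours. Endothelial sums were even, at 234, 236 and 236 CPM against 248, 221 and 269 CPM, with 0 of 10 called by edgeR, 2 at an unadjusted p below 0.05, and 1 called by each of DESeq2 and limma. Of 43 tested markers of pericytes, lymphocytes, myoblasts, melanocytes, Schwann cells and adipocytes, 1 was called by edgeR, Des, which muscle fibres also express, while DESeq2 called 4 higher and 1 lower and limma 1 higher and 1 lower. The part of any of these cells in the levels of the members was not tested. The ratios that follow describe the members beside the fibroblast and keratinocyte sums.

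Set against the fibroblast sum within each tumour, the groups overlapped for each of the 6 factors, Cdh2 and Vim. The log2 ratio differed between the groups by 0.17 for Snai1 (exact two-sided permutation test, p = 0.7), -0.82 for Snai2 (p = 0.4), -1.21 for Zeb1 (p = 0.2) and -0.59 for Zeb2 (p = 0.3). It differed by -0.34 for Twist1 (exact p = 0.4), -0.17 for Twist2 (p = 0.8), 1.71 for Cdh2 (p = 0.5) and -0.50 for Vim (p = 0.5). All 8 gave p-values of at least 0.55 after adjustment over 11 ratios by exact tests. With 3 against 3 tumours an unadjusted exact p cannot fall below 0.1. These tests could therefore not pass 0.05, and they do not show that the ratios were equal. The sum itself varied widely in the Ivl:BRAFV600E tumours, and the ratios moved with the tumour left out. The difference for Cdh2 was -0.08 without Ivl:BRAFV600E-SOX2LSL tumour 1, and that for Snai2 was 0.02 without Ivl:BRAFV600E tumour 2 and -1.64 without tumour 3. Snai1 gave 1.15 without Ivl:BRAFV600E tumour 2 and -0.75 without tumour 3. The overlap was not stable, since the groups came apart for Snai1 without Ivl:BRAFV600E tumour 2, for Zeb1 without Ivl:BRAFV600E-SOX2LSL tumour 2, and for Snai2, Zeb1 (-1.72), Zeb2 (-0.99) and Twist1 (-0.68) without Ivl:BRAFV600E tumour 3 (exact two-sided p = 0.2 for each). Likewise, Twist2 gave 0.43 without Ivl:BRAFV600E tumour 2 and 0.05 without Ivl:BRAFV600E-SOX2LSL tumour 3.

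The keratinocyte sum itself did not overlap between the genotypes, so that a ratio to it differs even for a gene whose level does not. Cdh1 stood at 0.636%, 0.446% and 0.497% of that sum in the Ivl:BRAFV600E tumours and 4.35%, 1.30% and 1.35% in the Ivl:BRAFV600E-SOX2LSL tumours. The log2 ratio differed by 1.92 for Cdh1, 2.45 for Cdh3 and 2.16 for Snai2, each with an exact two-sided permutation p = 0.1 (0.367 after adjustment over the 11 ratios). With Krt1 and Krt10 left out of the list the differences were 1.06, 1.59 and 1.30. They describe the members beside the keratins and add no test of their levels.

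**Figure D5:**
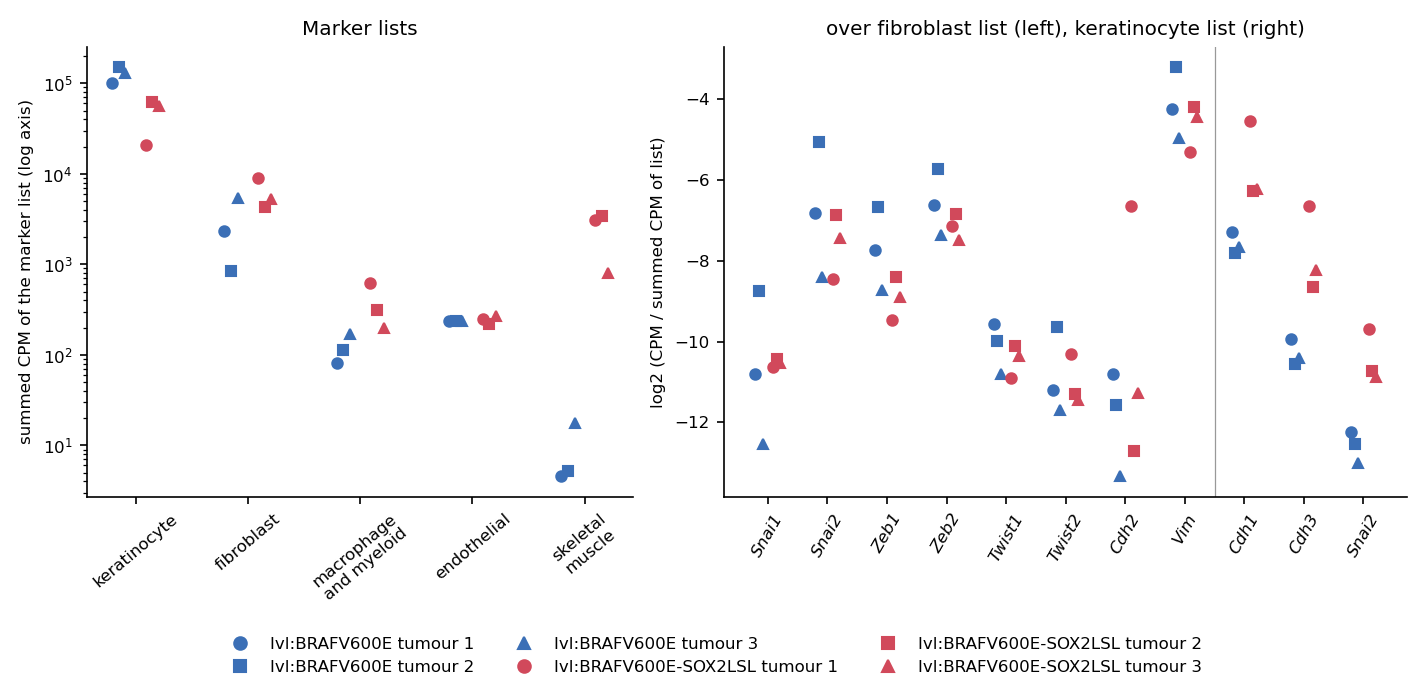
Left, summed CPM of 5 marker lists per tumour on a log axis. Right, log2 ratio of each gene to the fibroblast sum (left of the line) and of Cdh1, Cdh3 and Snai2 to the keratinocyte sum (right of the line). The genotypes overlap for all 8 ratios to the fibroblast sum and are apart for the 3 ratios to the keratinocyte sum, which itself differs.

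For each member, the genes with the most similar pattern were ranked by the mean absolute difference of log2 CPM, centred on its mean, over the 6 tumours, among 8650 or 8651 genes with a mean of at least 10 CPM. The nearest to Cdh3 were Slx4 (0.04), Cd151 (0.06) and Tlnrd1 (0.07), and those nearest to Vim were Birc3 (0.05), Cd47 (0.08) and Pdpr (0.08). Slx4 was measured at 8.12, 8.22 and 8.70 CPM in the Ivl:BRAFV600E tumours and 17.1, 12.8 and 15.5 CPM in the Ivl:BRAFV600E-SOX2LSL tumours. For Cdh2, whose pattern is set by 1 tumour, the nearest were Glb1l2 (0.70), Tfpi (0.79) and Grem1 (0.79), and none came close. Grem1, a secreted inhibitor of bone morphogenetic proteins, was measured at 3.65, 1.71 and 4.04 CPM against 106, 3.53 and 18.2 CPM.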

How the data were processed

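Total RNA of bulk tumours was sequenced after depletion of ribosomal RNA. The authors deposited raw read counts per gene for the whole series, without normalisation, after checking reads with FastQC 0.11.8, trimming with Trim Galore, alignment to GRCm38 with HISAT2 2.1.0 and counting with featureCounts (Subread 1.6.3). The strand setting and the treatment of multimapping reads are not given in the sources used here. Columns are named by mouse and were assigned to genotype and sex from the source data of the study. The labels name no mice, so columns carry no replicate number. Of 7 columns, 1 matched no listed mouse and was not used. The labels list 4 Ivl:BRAFV600E and 3 Ivl:BRAFV600E-SOX2LSL tumours, whereas the name of that column resembles those of the second genotype. Labels and names therefore did not settle its genotype. Whether its Sox2 and EGFP counts match either genotype was not tested.

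Genes that reached 5 reads in any 1 tumour were compared with edgeR 4.0.16 (TMM, quasi-likelihood test, Benjamini-Hochberg over all tested genes at 0.05, R 4.3.3). SE is the size of the log2 fold change divided by the square root of the F statistic. Ratios were compared with exact permutation tests (scipy 1.17.1). Exon lengths and positions are from GENCODE annotation of GRCm38. Scripts were tested on simulated data. Fewer than 3 counts were taken as not detected, and such limits cover counting error only.

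The members and lists were chosen with earlier results of these data known. Named genes are the members, Sox2, up to 4 genes with the smallest p per list, called genes of the Cdh family, defining markers, and the 3 genes most similar to each of 3 members. Alternatives were DESeq2 1.42.0, limma 3.58.1 (voom with sample weights), DESeq2 size factors, upper-quartile scaling, TMM without the 10 most counted genes, no filter, filterByExpr, sex as a covariate, a pseudocount of 0.5 CPM, shorter marker lists and each tumour left out.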

Additional observations from a re-analysis of the deposited data

How the results depend on the processing

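All 140 fits of the 10 members under 14 alternatives kept the sign of the log2 fold change, and 11 of them changed a call. Over all genes, 954 were called with edgeR, 3653 with DESeq2, 2142 with limma, 1759 without the filter on low counts and 228 with sex as a covariate, and 22 to 1575 when 1 tumour was left out. Upper-quartile scaling gave 508 higher and 466 lower calls, against 585 and 369. DESeq2, limma and edgeR without the filter each called 3 members, Cdh3, Snai1 and Vim. With sex as a covariate 0 members were called, and with a tumour left out 0 to 1. Of the genes in the 6 lists, 12 were called with edgeR, 47 with DESeq2, 28 with limma, 23 without the filter, 3 with sex as a covariate and 0 to 27 with a tumour left out. The cause of these shifts was not tested. DESeq2 gave Cdh2 no adjusted p. The ratio of Snai1 to the fibroblast sum changed sign with a pseudocount of 0.5 CPM (-0.13). Leaving out 1 tumour gave -0.75 to 1.15 for that ratio, -1.64 to 0.022 for Snai2, -0.60 to 0.43 for Twist2 and -0.076 to 2.96 for Cdh2. No paired analysis was possible because the columns carry no replicate numbers and the labels name no pairs. Each tumour came from a different mouse. Ivl:BRAFV600E tumours gave 6 to 38 counts of Cdh2, 23 to 34 of Twist2 and 19 to 43 of Snai1, and 1 tumour moved the values of Cdh2 and Twist2.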
